A study of Mus musculus with 16 samples.

Results

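The BDC2.5 T cell receptor (TCR) transgene was compared with its absence in DN4 thymocytes of B6g7 mice, on 4 of the 16 arrays of the series: 2 of BDC/B6g7 DN4 cells and 2 of B6g7 DN4 cells, taken by their labels. B6g7 mice are C57BL/6 animals with the H2g7 haplotype of NOD mice, and both groups carry it. BDC mice bear the rearranged TCR genes of BDC2.5, a CD4 T cell clone that causes diabetes, and the mice without them (non-Tg) have a polyclonal repertoire. All mice were 4 weeks old. Thymocytes were depleted of CD4 and CD8 cells with complement and sorted as lineage-negative cells without CD44 or CD25. Both non-Tg arrays and BDC replicate 2 came from female mice, and BDC replicate 1 came from a male. The 2 BDC arrays differ in sex and so did not come from the same mouse. Nothing in the labels tells if the 2 non-Tg arrays came from separate mice, or if mice were pooled. The p-values therefore reflect no more than the scatter of the arrays given, part of which may be technical. The same transgene was also compared in NOD DN4 cells and in B6g7 DN2-3 cells (CD25-positive), and those effects are used here to show where the B6g7 DN4 effect differs.

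Double-negative thymocytes carry neither CD4 nor CD8 and rearrange their TCR genes. A cell that makes a beta chain pairs it with the pre-TCR alpha chain, divides, and passes through the DN4 stage to become a CD4 and CD8 double-positive cell, whereas cells with a gamma-delta receptor leave this path. A rearranged alpha-beta transgene gives the cell a complete receptor before the pre-TCR would act.

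Values are log2 of array intensities, so a difference of 1 is a 2-fold change, and differences are BDC minus non-Tg with the standard error of the limma model and 2 arrays per group. A gene was called at a Benjamini-Hochberg adjusted p under 0.05, and "rose" and "fell" are used only for called genes. The background level was set at 5.98, the brightest Y-linked signal on an array of a female. Where both arrays of a group lay under it, the change is written as "at least" its size measured from 5.98, with the adjusted p of the deposited values. Array medians ran from 123.1 to 138.2 on the linear scale. The spread of signals was narrower on the B6g7 DN4 arrays, with ratios of the upper to the lower quartile of 7.60 and 7.46, than on the BDC arrays, with 8.91 and 8.30. Replicates correlated across genes with r = 0.989 in non-Tg and 0.991 in BDC cells. On all 4 arrays Xist and 3 Y-linked genes fitted the sex given in the labels. Markers of double-negative thymocytes were strong: Cd3e read 12.50 to 12.84 and Thy1 12.43 to 12.87. Cd44 read 6.12 to 6.64, while Il2ra, which encodes CD25, still read 9.61 to 10.56 against 12.52 to 12.93 on the B6g7 and BDC/B6g7 DN2-3 arrays.

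BDC and non-Tg DN4 cells differed across much of the transcriptome. Of 10689 genes tested with limma, 6336 or 59.3% were called, 3213 higher (30.1%) and 3123 lower (29.2%) in BDC cells. At least 2-fold changes were found in 949 higher and 716 lower genes. In 8771 of the 10689 genes every array of one group lay apart from every array of the other, more genes than were called. Where arrays are described below as apart or without overlap, this holds for most genes tested and does not set the named genes off. Genes of TCR signalling and T cell maturation rose, as did those listed for gamma-delta T cells. Genes of recombination, the CD8 coreceptor, cell division and ribosome biogenesis fell. The median difference over all genes tested was -0.02, and each list below is to be read beside that median and the shares of 30.1% and 29.2%. Lists share members, with 665 distinct genes in 778 entries, so their counts are not independent. The higher count was 2040 without the 4 male arrays of the series, which leaves BDC replicate 2 alone, beside 2218 lower. These are sorted bulk samples, so a change in the mix of cells and a change within each cell cannot be told apart. Hybridisation and scan batches are not given, so a batch that follows the genotype cannot be told apart from the transgene. All male arrays of the series were in BDC groups.

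**Figure D1:**
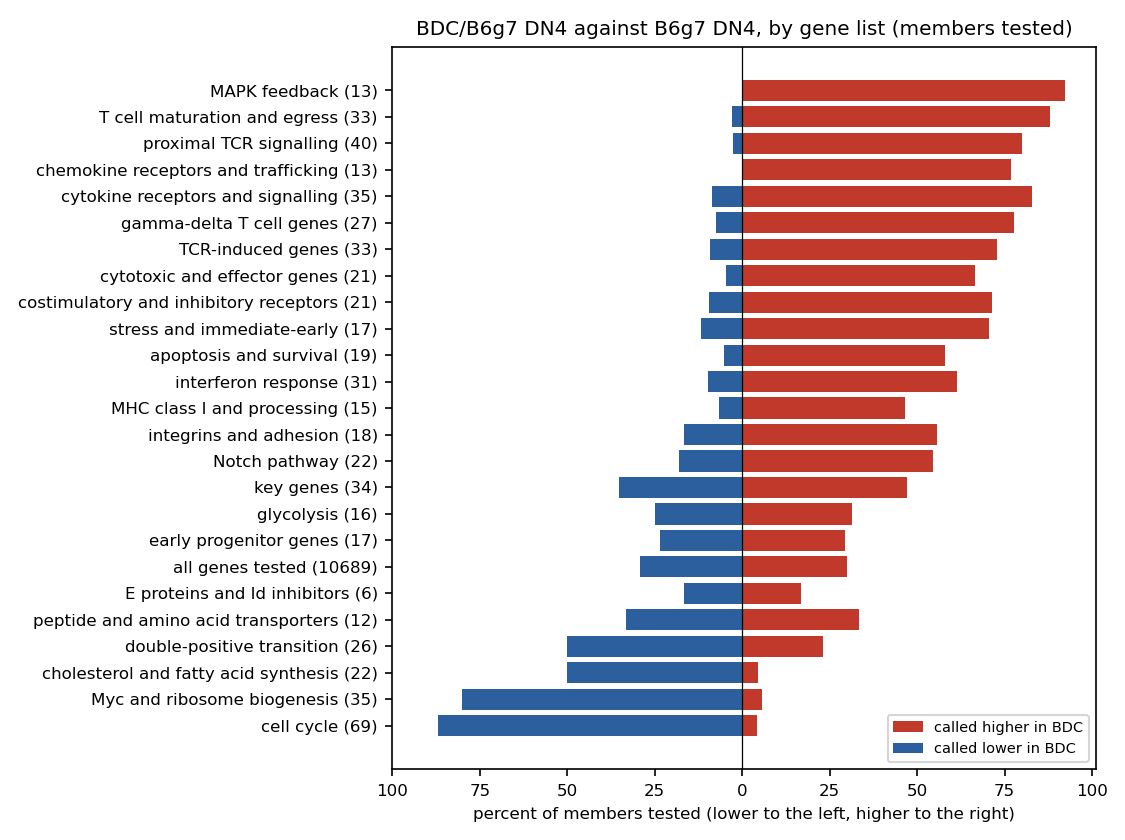
Percent of the tested members of each gene list that were called higher (red, right) or lower (blue, left) in BDC/B6g7 DN4 against B6g7 DN4 cells, with the number tested in parentheses. MAPK feedback genes had 12 of 13 called higher, cell cycle genes 60 of 69 called lower, and all 10689 genes split into 30.1% higher and 29.2% lower.

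The largest rises were in Slc15a1, a transporter of small peptides, and Ccr8, and the bound on the first leaves their order unset. It read 5.89 and 5.78 on the non-Tg arrays, both at background, and 11.03 and 11.25 on the BDC arrays. It rose by at least 5.16 (adjusted p = 7.8e-13 with limma on the values as deposited). The chemokine receptor gene Ccr8 read 7.15 and 7.20 in non-Tg and 12.31 and 12.41 in BDC cells, a difference of 5.18 ± 0.17 or 36.3-fold. In both genes the arrays of a group lay close together and far from the other group. Igfbp4, which binds insulin-like growth factors, rose by 4.90 ± 0.11. Itgae, the CD103 integrin chain that holds T cells at epithelia, went from 6.76 and 6.35 to 11.23 and 11.66 (4.89 ± 0.17). The Src family kinase gene Blk went from 7.61 and 7.52 to 12.10 and 12.07 (4.52 ± 0.14), and S1pr1, the receptor through which mature thymocytes leave the thymus, from 6.91 and 7.06 to 11.38 and 11.62 (4.52 ± 0.12). No array of one group reached the other group's range in any of these genes, which the choice of genes required. Other large rises were in Ccr4 (4.09 ± 0.13), the lymphocyte GTPase gene Gimap4 (4.05 ± 0.12), the sialyltransferase gene St6gal1 (4.00 ± 0.14), Niban1 (3.99 ± 0.10) and the small GTPase gene Gem (3.98 ± 0.16).

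The largest fall was in Ly6d, a surface protein gene of early lymphocytes, which read 10.90 and 10.48 in non-Tg and 7.31 and 7.05 in BDC cells (-3.51 ± 0.18, or 11.4-fold, adjusted p = 4.9e-09 with limma). Rag1, a subunit of the recombinase that joins TCR gene segments, went from 9.91 and 10.49 to 7.04 and 6.49 (-3.44 ± 0.24). Its partner Rag2 went from 8.26 and 7.46 to 4.73 and 4.83, at background on both BDC arrays, and fell by at least 1.88. The non-Tg arrays differed from each other by more in the Rag genes than in Ly6d, but the groups stayed apart, which the choice of genes required. Nrp1, a receptor of semaphorins, fell by 3.24 ± 0.16, from 9.49 and 9.53 to 6.16 and 6.38. The cell division genes Esco2 (-2.76 ± 0.19), which modifies cohesin, and Pbk (-2.40 ± 0.15), a mitotic kinase, and Dctd (-2.51 ± 0.12), an enzyme of nucleotide synthesis, were also among the 15 largest falls. So were Bst1, a surface enzyme (-2.82 ± 0.14), and the adhesion gene Mpzl2 (-2.63 ± 0.15).

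**Figure D2:**
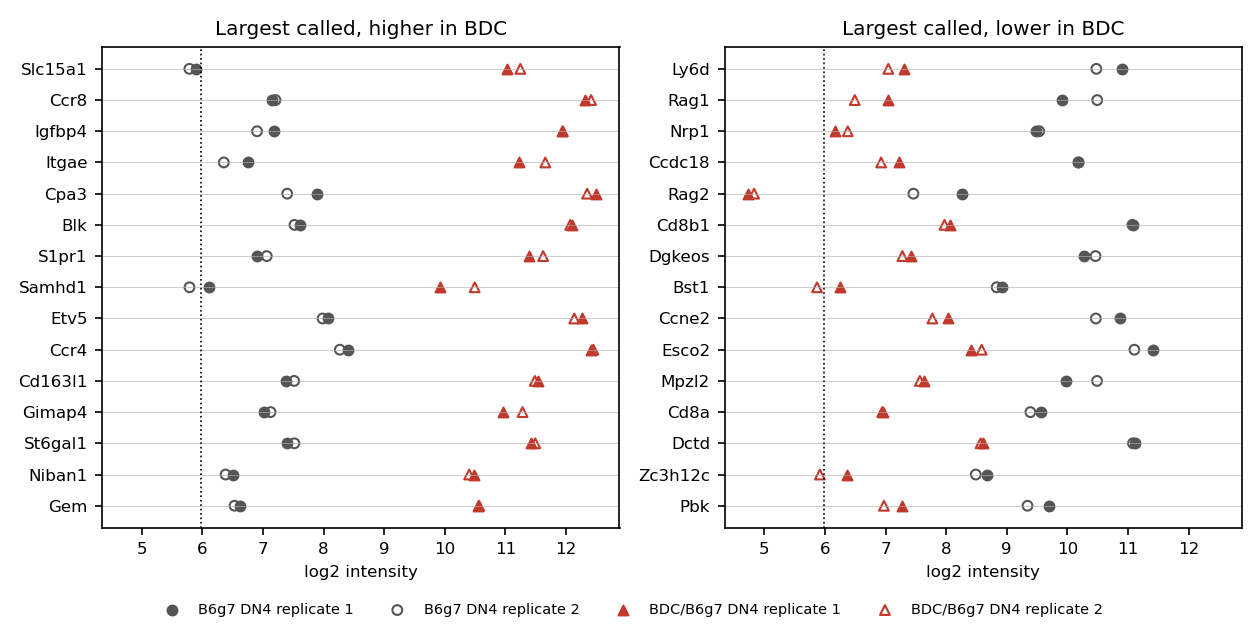
Log2 intensity on each of the 4 arrays for the 15 called genes with the largest rise (left) and fall (right) in BDC/B6g7 DN4 (red triangles) against B6g7 DN4 (grey circles), replicate 1 filled and replicate 2 open. The dotted line is the background level of 5.98; the groups do not overlap in any gene shown, which the choice of genes required.

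The receptor machinery itself was unevenly affected. Of the CD3 genes, Cd247, the zeta chain that carries most of the receptor's signalling motifs, read 9.64 and 9.72 in non-Tg and 11.18 and 11.16 in BDC cells and rose by 1.49 ± 0.12. Cd3d rose by 0.75 ± 0.10, Cd3e differed by 0.21 ± 0.10 (adjusted p = 0.0706 with limma), and Cd3g by -0.29 ± 0.09. The call of Cd3g was lost after quantile normalization again (-0.18), after centring of each array (-0.22), without B6g7 DN4 replicate 1 (-0.25) and without BDC/B6g7 DN4 replicate 1 (-0.23). Ptcra, the pre-TCR alpha chain, read 8.19 and 8.15 against 6.80 and 6.62 and fell by 1.46 ± 0.16. Dntt, the polymerase that adds bases at TCR gene joints, fell by 0.97 ± 0.11. With Rag1 and Rag2, all 4 tested genes of the pre-TCR and recombination fell.

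Variable segments of the endogenous TCR loci could be read in 3 genes. The delta segment Trdv2-2, on chromosome 14, read 9.59 and 9.52 in non-Tg and 7.22 and 6.74 in BDC cells (-2.57 ± 0.16). The beta segment Trbv1, on chromosome 6, read 9.04 and 8.92 against 7.87 and 7.63 (-1.23 ± 0.16). Both fell, with no overlap between the groups. The alpha segment Trav13-5 differed by 0.03 (adjusted p = 0.858 with limma).

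Coreceptor transcripts fell in the BDC cells. Cd8b1 read 11.09 and 11.07 in non-Tg and 8.07 and 7.97 in BDC cells, a difference of -3.06 ± 0.22 or 8.33-fold. Cd8a went from 9.57 and 9.39 to 6.96 and 6.94 (-2.53 ± 0.18, or 5.77-fold). In B6g7 DN2-3 cells without the transgene Cd8b1 read 6.83 and 7.08, below both non-Tg DN4 arrays. Cd4 read 7.30 and 7.46 in non-Tg and 6.58 and 6.99 in BDC cells (-0.59 ± 0.14), and its fall did not pass without BDC/B6g7 DN4 replicate 1 (-0.39). The 7 coreceptor and recombination genes all fell, with a median of -2.53. The 19 other tested genes known to change as double-positive cells form split into 6 that rose and 6 that fell, with a median of -0.05. Tdrd5 (-1.85) and the Ikaros family gene Ikzf3 (-1.51) fell, while Ccr9, the receptor that guides thymocytes in the thymic cortex, rose by 3.09 ± 0.16 from 10.01 and 10.26 to 13.28 and 13.16.

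Genes that carry the signal from the receptor, or restrain it, rose. Of 40 tested genes of proximal TCR signalling, 32 rose and 1 fell, with a median of 0.74. Among the 9 kinases 8 rose, with a median of 1.96. Besides Blk, the Tec family kinase gene Txk went from 8.52 and 8.66 to 11.57 and 11.45 (2.91 ± 0.13), Prkcq, the protein kinase C of the T cell synapse, to 12.36 on both BDC arrays (2.31 ± 0.08), and the Src kinase gene Fyn from 8.75 and 8.86 to 10.92 and 11.04 (2.18 ± 0.18). BDC arrays were above both non-Tg arrays in each of these. Zap70, which binds the phosphorylated CD3 chains, rose by 1.48, and the catalytic PI3 kinase subunit gene Pik3cd by 1.96 ± 0.17. Syk, the kinase that acts beside Zap70 below the pre-TCR, differed by -0.13 and was not called. The adaptor genes moved less, with 15 of 18 higher and a median of 0.57. Sla2 (1.65), Pag1 (1.33) and Vav1 (1.23) rose, Ubash3a fell by 0.55, and Lat rose by 0.39. Of these, Sla2, Pag1 and Ubash3a restrain the signal, so inhibitors moved in both directions. Of the effectors, Nfatc2, a calcium-dependent transcription factor, rose by 2.14 ± 0.14, Rasgrp1, which activates Ras, by 1.53, and the phosphatase gene Ptpn22 by 1.60.

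Genes that TCR signals are known to induce also rose. In this list 24 of 33 tested members rose and 3 fell, with a median of 0.89. The orphan receptor gene Nr4a1, a reporter of TCR signal strength, read 11.10 and 11.19 in non-Tg and 13.17 and 13.05 in BDC cells (1.97 ± 0.35). Pdcd1, the inhibitory receptor PD-1, went from 8.54 and 8.63 to 11.86 and 11.83 (3.26 ± 0.10). Irf4, a factor whose level follows TCR signal strength, went from 6.23 and 6.33 to 8.64 and 9.22 (2.65 ± 0.19). The groups were apart in all 3 genes, although the standard error of Nr4a1, which takes in the spread of all 8 groups, was wide. Cd69, an activation marker that retains cells in the thymus, rose by 1.39 ± 0.19, Cd5, a negative regulator set by signal strength, by 0.98 ± 0.10, and the early growth response genes Egr2 by 1.27 ± 0.14 and Egr1 by 0.86 ± 0.16. Egr3 differed by 0.16 ± 0.11 (adjusted p = 0.244 with limma) and Id3, their target in gamma-delta cells, by 0.27 ± 0.13 (adjusted p = 0.0776 with limma). The 3 that fell were Ctla4 (-0.98), Slamf6 (-0.40) and Cd200, which was at background in BDC cells (5.57 and 5.84), fell by at least 0.14 and was not called with signals raised to background. A single gene of the list fell without BDC/B6g7 DN4 replicate 1, and likewise without B6g7 DN4 replicate 1.

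Inhibitors of the MAP kinase pathway rose in 12 of 13 tested genes, with a median of 1.01. Dusp1, a phosphatase of MAP kinases, went from 10.06 and 10.17 to 12.64 and 12.47 (2.44 ± 0.39), Rasa3, which turns Ras off, rose by 2.51 ± 0.15, and the ERK phosphatase gene Dusp6 by 1.57 ± 0.21. Spry1 was the exception, with a difference of -0.38 that was not called. Immediate-early factors, some of them counted in the lists above, rose in 9 of 10 tested. Among them were Klf6 (1.86 ± 0.13), Junb (1.63 ± 0.20) and Fos (1.31 ± 0.14).

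Genes listed for gamma-delta T cells rose in 21 of 27 tested members and fell in 2, with a median of 1.69. Several of them, such as Cpa3, Cd27 and Icos, are not particular to that lineage. The factor gene Etv5 went from 8.08 and 7.98 to 12.27 and 12.14 (4.17 ± 0.10, or 18.0-fold). Sox13, which marks the lineage early, went from 8.49 and 8.54 to 11.22 and 10.95 (2.57 ± 0.11). The scavenger receptor gene Cd163l1 went from 7.37 and 7.51 to 11.53 and 11.48 (4.06 ± 0.11). All 3 were apart between the groups, as were most genes tested. Maf, a factor of cells that make interleukin 17, rose by 3.38 and Il17re by 1.69. Zbtb16, which encodes PLZF, read 7.53 and 7.47 against 7.03 and 7.32 and was not called (-0.33 ± 0.15, adjusted p = 0.0709 with limma). Tbx21, the factor of interferon-producing cells, fell by 1.05, while Ifng rose by 1.03. The list holds genes shared with the TCR, integrin and cytotoxic lists, and the share of gamma-delta cells in the sort was not measured here. The delta segment Trdv2-2, as given above, was lower and not higher in the BDC cells.

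Granule and effector genes rose in 14 of 21 and fell in 1, with a median of 1.03. Nkg7, a granule membrane protein gene, went from 8.13 and 8.28 to 11.70 and 11.78 (3.54 ± 0.12). Cpa3, a carboxypeptidase best known in mast cells, went from 7.88 and 7.40 to 12.49 and 12.35 (4.78 ± 0.20). Both genes separated the groups completely. Of the other mast cell and basophil markers, Mcpt8, Mcpt4, Tpsab1, Ms4a2 and Fcer1a were at background on all 4 arrays, Gata2 (6.90 to 7.16) and Hdc (6.78 to 6.89) overlapped between the groups, and Kit rose by 1.29 ± 0.14. The summed linear level of the 9 mast cell markers was 912.2 and 936.0 in non-Tg and 7001 and 6326 in BDC cells, where Cpa3 made up most of it. Tnfsf11, the RANK ligand gene, rose by 2.17 ± 0.11 and the lymphotoxin gene Ltb by 1.96 ± 0.11.

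Genes of T cell maturation and egress rose in 29 of 33 tested members and fell in 1, with a median of 1.39. Klf2, the factor that drives S1pr1 expression, rose by 2.09, and its upstream regulator Foxo1 by 1.85. Bcl2, the survival gene, went from 9.52 and 9.64 to 11.61 and 11.60 (2.03 ± 0.11, or 4.07-fold). Runx3, a factor of CD8 and gamma-delta lineages, rose by 2.07 ± 0.15, Bach2 by 2.64 ± 0.17, the T cell factor gene Bcl11b by 1.16 ± 0.16 and Gata3 by 1.54 ± 0.12. Gimap3, from the same gene cluster as Gimap4, was at background in non-Tg cells (5.49 and 5.32), read 7.98 and 8.20 in BDC cells and rose by at least 2.11. Il7r, the interleukin 7 receptor, read 9.94 and 9.90 against 10.01 and 9.95 and was not called (0.06 ± 0.11, adjusted p = 0.651 with limma). Without the male arrays the list again had 29 members higher and 1 lower.

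Receptors for homing and cytokines rose with them. Of 13 tested trafficking genes 10 rose and none fell (median 1.39). Ccr7, the receptor that draws thymocytes to the medulla, rose by 2.38 ± 0.17 and Cx3cr1 by 1.53 ± 0.10, while Cxcr4, a receptor of cortical DN cells, differed by -0.16 and was not called. Integrin and adhesion genes split into 10 that rose and 3 that fell of 18 (median 0.52). Itgb3 went from 7.39 and 7.47 to 11.15 and 11.22 (3.75 ± 0.11), and Itgb7, the partner of Itgae, rose by 2.34 ± 0.21 although its non-Tg arrays read 6.22 and 7.09. Itga6 fell by 0.47. Cytokine receptor and signalling genes rose in 29 of 35 and fell in 3 (median 1.09). Il2rb, the beta chain of the receptors for interleukins 2 and 15, went from 6.46 and 6.33 to 9.33 and 9.76 (3.15 ± 0.14). Tgfbr2 rose by 2.71 ± 0.14, Il21r by 2.70 ± 0.13 and Stat4 by 1.96, and Socs2, a signalling suppressor at background in non-Tg cells (5.28 and 5.35), rose by at least 2.47. Il2ra moved the other way and fell by 0.72 ± 0.12. Costimulatory and inhibitory receptors rose in 15 of 21 and fell in 2 (median 0.98), among them Cd226 (2.89 ± 0.11), Tnfrsf18, which encodes GITR (2.43 ± 0.25), and Icos (2.00 ± 0.14).

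Cell division genes fell together. Of 69 tested, 60 fell and 3 rose, with a median of -1.33. In DNA replication and nucleotide synthesis 26 of 27 fell, and in mitosis and the spindle 24 of 25, with medians of -1.38 and -1.40. Ccne2, the cyclin E gene that starts S phase, went from 10.87 and 10.47 to 8.02 and 7.77 (-2.77 ± 0.17, or 6.83-fold). Rfc4, a subunit of the clamp loader, went from 12.03 and 11.88 to 9.76 and 9.59 (-2.28 ± 0.09), and Bub1, a spindle checkpoint kinase, from 11.16 and 11.26 to 9.11 and 9.08 (-2.12 ± 0.09). In each of these genes both non-Tg arrays lay far above both BDC arrays. Mcm10 (-2.02 ± 0.09), Tyms (-2.03 ± 0.09), Cdk1 (-1.90) and Mki67 (-1.33) fell in the same way. In the group of G1 and entry 10 of 17 fell, including the E2F genes E2f8 (-1.87), E2f2 (-1.71), E2f3 (-1.10) and E2f1 (-0.92). The 3 that rose were Ccnd2, a D cyclin (1.09), and the inhibitors of cyclin-dependent kinases Cdkn1b (0.77) and Cdkn2d (0.34). Cenpa (0.39) and Cdt1 (-0.47) were not called. Without the male arrays 57 fell and 2 rose.

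E2F factors bind promoters of replication genes. The letters TTTCCCGC or TTTGGCGC, on either strand, were searched in windows from 250 bases before to 50 after the start of each gene, as given in the RefSeq promoter table of build GRCm38.p6. A window was found for 50 of the 60 cell cycle genes that fell, and 10 of these 50 held a match. By role, matches were in 7 of 21 replication genes (33.3%), 3 of 9 genes of G1 and entry (33.3%) and 0 of 20 mitosis genes. These shares are of genes, each counted where any of its windows held a match. Among all tested genes with a window the share was 3.69% (320 of 8664). Counted by single windows, which include those of untested genes, the share was 1.56% of 32851. Of the 2540 called-lower genes with a window 5.47% held a match, and of the 2603 called-higher genes 2.50%. A match describes the letters only and is not shown to be a bound site, and no match says nothing about the factor. The stretches below show the match, in capitals and within 60 bases, in 6 of these genes. They were taken in order of the size of the fall, among genes whose match met limits on position and chromosome. They are the licensing factor Cdc6 (chr11:98907987-98908046, plus strand), the polymerase alpha subunit Pola1 (chrX:93632260-93632319, minus strand), the helicase subunits Mcm6 (chr1:128359782-128359841, minus strand), Mcm7 (chr5:138172015-138172074, minus strand) and Mcm5 (chr8:75109334-75109393, plus strand), and the kinase Cdk2 (chr10:128705158-128705217, minus strand).
Cdc6: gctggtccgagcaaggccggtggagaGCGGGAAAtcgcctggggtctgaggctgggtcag
Pola1: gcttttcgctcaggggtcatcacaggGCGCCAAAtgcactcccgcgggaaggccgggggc
Mcm6: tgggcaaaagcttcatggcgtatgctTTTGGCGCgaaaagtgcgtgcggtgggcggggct
Mcm7: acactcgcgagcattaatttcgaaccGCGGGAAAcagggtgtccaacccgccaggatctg
Mcm5: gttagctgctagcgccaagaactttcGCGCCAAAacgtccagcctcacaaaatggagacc
Cdk2: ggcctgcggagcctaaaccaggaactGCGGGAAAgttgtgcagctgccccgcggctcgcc
These genes fell by different amounts: Cdc6 by 1.81, Pola1 by 1.65, Mcm6 by 1.41, Mcm7 by 0.92, Mcm5 by 0.71 and Cdk2 by 0.60.

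Growth genes fell beside the cell cycle. Of 35 tested genes of Myc and ribosome biogenesis 28 fell and 2 rose, with a median of -0.86. Myc itself read 11.37 and 10.57 in non-Tg and 9.37 and 9.41 in BDC cells (-1.58 ± 0.22), so its non-Tg arrays differed from each other but both lay above the BDC arrays. Gnl3, a nucleolar GTPase gene, went from 10.33 and 10.22 to 8.69 and 8.53 (-1.67 ± 0.09), and Srm, of polyamine synthesis, fell by 1.53 ± 0.22. Mxd4, which opposes Myc at its target sites, rose by 1.45. Enzymes of cholesterol and fatty acid synthesis fell in 11 of 22 and rose in 1 (median -0.35), led by Idi1, of isoprenoid synthesis (10.60 and 10.46 against 8.31 and 8.41, -2.17 ± 0.13), and Sqle (-1.48 ± 0.13). Glycolysis genes had no common direction, with 5 higher and 4 lower of 16, and 4 and 2 without the male arrays. The glucose transporter gene Slc2a3 rose by 2.21 ± 0.20 and the lactate transporter gene Slc16a1 fell by 1.79 ± 0.12.

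Most called death and survival genes were higher in both roles. Of 8 tested anti-apoptotic genes 6 rose and none fell, with Bcl2 followed by Cflar, the inhibitor of caspase 8 (1.43 ± 0.11), and Mcl1 (0.85). Of 11 pro-apoptotic genes 5 rose and 1 fell. Bid, which links death receptors to mitochondria, went from 9.82 and 9.72 to 8.01 and 7.94 (-1.80 ± 0.09). Bcl2l11, the BIM gene of negative selection, read 9.85 and 10.08 against 11.05 and 10.70 and rose by 0.91 ± 0.23, but did not pass without the male arrays (0.73). Bcl2l1, the survival gene of double-positive cells, differed by 0.08 and was not called.

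Notch genes showed 12 higher and 4 lower of 22, with 8 higher without the male arrays. The receptor and modifier genes rose in 8 of 12 and none fell, for example Maml2, a coactivator (1.31 ± 0.16), and Lfng, which modifies Notch (0.77). The targets were split, with Hes1 (1.69 ± 0.08), Hey1 (1.57 ± 0.16), Dtx1 (1.27) and Gata3 higher and Ptcra, Myc, Il2ra and Nrarp (-0.53) lower. Notch1 differed by -0.18 and was not called. Among early progenitor genes 5 rose and 4 fell of 17, and 3 and 2 without the male arrays. Cd93 rose by 2.55 ± 0.10, Kit by 1.29 ± 0.14, and Bcl11a fell by 0.61 ± 0.12. The E protein gene Tcf4 rose by 0.50 ± 0.12, Id1 fell by 0.40 ± 0.11, and Id2 differed by 0.25 ± 0.14 (adjusted p = 0.157 with limma). The call of Tcf4 was lost without the male arrays (0.44), and that of Id1 without them (-0.42), after quantile normalization again (-0.30) and without B6g7 DN4 replicate 1 (-0.23).

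Interferon response genes rose in 19 of 31 tested members and fell in 3, with a median of 0.61. Samhd1, which degrades nucleotides and was at background on 1 non-Tg array, read 6.11 and 5.79 in non-Tg and 9.92 and 10.49 in BDC cells (4.26 ± 0.17). Usp18 rose by 1.98 ± 0.18, Irf7 by 1.56 ± 0.17 and the RNA sensor gene Ddx58 by 1.40 ± 0.10, while Ifit2 fell by 1.29 and Bst2 by 0.72. Core members such as Ifit1 (0.18), Oas2 (0.11) and Rsad2 (0.25) were not called. Genes of MHC class I and its peptide loading rose in 7 of 15 and fell in 1, with Tapbp at 1.15 ± 0.16 and B2m, the shared light chain, at -0.11 and not called.

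Markers of NK and myeloid cells and most B cell markers were at or near background, and erythroid and stroma markers less so. Of 5 NK cell markers all were at background on all 4 arrays, as were 5 of 8 myeloid and dendritic markers and 3 of 6 B cell markers. The counts were 0 of 4 for erythroid and 1 of 7 for stroma markers. Col1a1 read 7.63 to 7.86, Krt8 7.04 to 7.44 and the erythroid gene Slc4a1 6.85 to 7.11. The summed linear level of the B cell markers was 682.2 and 638.8 in non-Tg and 871.5 and 920.0 in BDC cells, from Cd79b (8.67 and 8.64 against 9.23 and 9.33), while Cd79a and Ms4a1 were at background throughout. Myeloid markers summed to 450.3 and 470.4 in non-Tg and 421.2 and 445.9 in BDC cells. Among stroma markers Pecam1, which T cells also express, rose by 1.55 ± 0.13, and Epcam, Krt8 and Col1a1 were not called. The stroma markers summed to 1259 and 1356 in non-Tg and 2385 and 2357 in BDC cells. Erythroid markers summed to 379.0 and 417.7 against 339.3 and 352.2.

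The same transgene was set beside this effect in NOD DN4 cells, and the difference of the 2 effects was tested in the same fit. No array is shared by the 2 effects. The difference was called in 2152 genes or 20.1%, with 1169 where the B6g7 effect lay above the NOD effect and 983 where it lay below. After centring of each array the split was 1451 and 702. The count rested on single arrays: it was 3734 without either NOD DN2-3 array, which take no part in the comparison but widen the shared spread, 1401 without BDC/B6g7 DN4 replicate 1, 1305 without NOD DN4 replicate 2, 1395 and 1335 without BDC/NOD DN4 replicates 1 and 2, and 321 without the male arrays. The CD8 genes and Rag1 were among those with a called difference, and that of Rag2 was not called with signals raised to background. In NOD, Cd8b1 read 9.36 and 9.52 without and 9.23 and 9.10 with the transgene, an effect of -0.28 beside -3.06 in B6g7 (difference -2.78 ± 0.31, adjusted p = 8.6e-05 with limma). Rag1 changed by -1.05 in NOD and -3.44 in B6g7 (difference -2.38 ± 0.34), and Nrp1 by -0.87 and -3.24 (difference -2.37 ± 0.23). Without the transgene the Cd8b1 arrays of NOD lay below those of B6g7, and with it they lay above.

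Rises were larger in B6g7 for several T cell genes. Il2rb changed by 0.41 in NOD against 3.15 in B6g7 (difference 2.74 ± 0.19). Samhd1 read 5.85 and 5.83 in NOD without the transgene, both at background, and 6.78 and 7.05 with it, so its NOD change has only a bound. Its strain difference was 3.18 on the deposited values and 3.22 with signals raised to background. S1pr1 changed by 2.74 in NOD against 4.52 (difference 1.78 ± 0.17). Cell cycle genes had a median of -0.41 in NOD DN4 against -1.33 in B6g7, and the difference was called in 50 of 69, read against 20.1% of all genes. For Myc and ribosome biogenesis it was called in 21 of 35, with medians of -0.22 and -0.86. For other large rises the difference between strains did not pass. Ccr9 changed by 3.08 in NOD and 3.09 in B6g7 (difference 0.01 ± 0.23, adjusted p = 0.985 with limma), Etv5 by 3.83 and 4.17 (difference 0.34 ± 0.15, adjusted p = 0.113 with limma), and Cpa3 by 5.39 and 4.78 (difference -0.61 ± 0.28, adjusted p = 0.145 with limma).

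**Figure D3:**
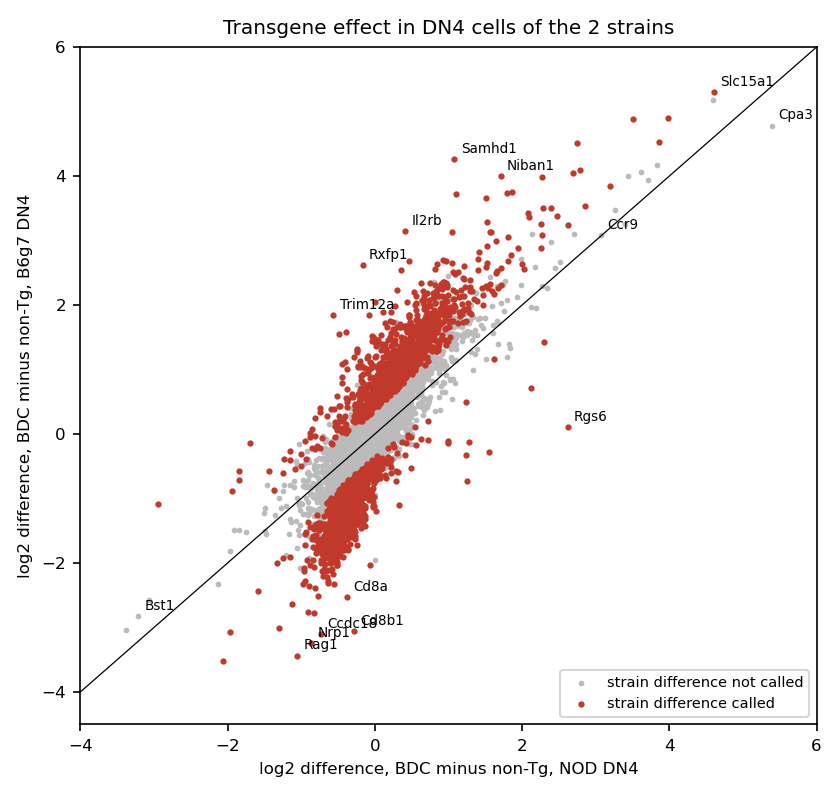
Log2 difference between BDC and non-Tg DN4 cells in B6g7 (vertical) against NOD (horizontal) for the 10689 genes tested, red where the difference of the 2 effects was called, with the line of equal effects. Cd8b1 lies at -3.06 in B6g7 and -0.28 in NOD, and Ccr9 lies on the line near 3.09 in both.

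Against B6g7 DN2-3 cells the transgene effect differed in 5805 genes or 54.3% (2917 where the DN4 effect lay above and 2888 below), and in 3676 without the male arrays. With the replicate block within strain and genotype, which takes up any pairing of the DN2-3 and DN4 arrays by number, 6372 were called, 5781 of them shared. The median of the cell cycle genes had opposite signs in the 2 stages. It was 0.52 in DN2-3 and -1.33 in DN4, and the difference was called in 64 of 69. Ccne2 changed by 0.48 in DN2-3 against -2.77 in DN4 (difference -3.25 ± 0.23), and Rfc4 by 0.79 against -2.28 (difference -3.07 ± 0.13). Itgae changed by -0.74 in DN2-3 and 4.89 in DN4 (difference 5.63 ± 0.24), Ccr9 by -1.95 and 3.09 (difference 5.04 ± 0.23), and Cpa3 by 0.35 and 4.78 (difference 4.43 ± 0.28). Cd69 changed by -1.75 in DN2-3 against 1.39 in DN4 (difference 3.14 ± 0.27), and Cd8b1 by 0.95 against -3.06 (difference -4.0 ± 0.31). For Rag1 and Etv5 the difference between stages did not pass. Rag1 changed by -3.21 in DN2-3 and -3.44 in DN4 (difference -0.23 ± 0.34, adjusted p = 0.601 with limma). Etv5 changed by 4.14 and 4.17 (difference 0.03 ± 0.15, adjusted p = 0.866 with limma).

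**Figure D4:**
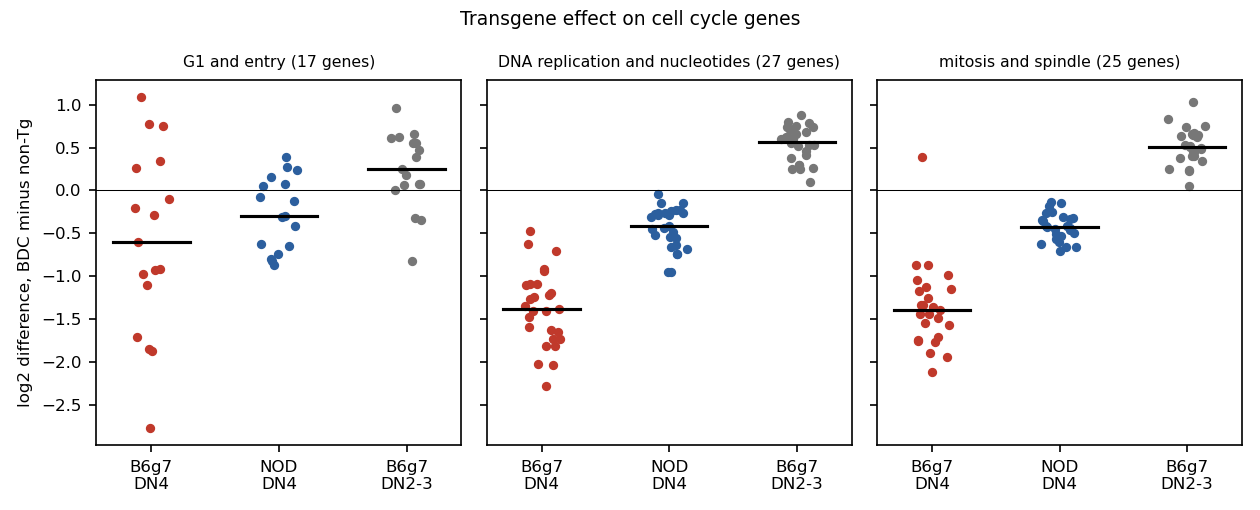
Log2 difference between BDC and non-Tg cells for each tested cell cycle gene, by role, in B6g7 DN4 (red), NOD DN4 (blue) and B6g7 DN2-3 (grey), with the median of each group of genes as a bar. The replication genes have medians of -1.38 in B6g7 DN4, -0.42 in NOD DN4 and 0.56 in B6g7 DN2-3.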

How the data were processed

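RNA extracted with Trizol was labelled with biotin by the Affymetrix protocol, per the labels. The authors deposited a linear intensity for each probe set and array, computed with RMA in Affymetrix Power Tools, per the submitters' processing notes. Versions are not given in the sources used here. RMA brings the arrays to one distribution of probes, so a shift shared by most genes would not be seen. The number of arrays limits the precision, and no detection calls were used.

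Values were put on the log2 scale with no pseudocount. The brightest of the 21157 probe sets with 1 gene symbol was kept for each of 19531 genes; 1341 probe sets with several symbols and 2610 with none were left out. Genes entered the test if any group mean was at least 7.05 log2 (132.9 linear), the median of the named probe sets. The 16 arrays were fitted as 8 group means with limma 3.58.1 (lmFit and eBayes, two-sided, 8 residual and 5.06 prior degrees of freedom) in R 4.3.3, and figures were drawn in Python 3.11.15. Replicate numbers did not pair BDC/B6g7 DN4 with B6g7 DN4 arrays, whose same-numbered deviations correlated at -0.04. Within a strain and genotype same-numbered DN2-3 and DN4 deviations correlated at 0.58 (NOD), 0.48 (BDC/B6g7), 0.46 (BDC/NOD) and 0.10 (B6g7), so pairing was weak in B6g7. BDC groups of different strains also correlated, at 0.31 to 0.41. Replicate 1 was male in every BDC group, so sex cannot be told apart from a pairing there. The source of these correlations was not tested. The fit was tested on simulated data.

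Of 778 gene list entries 716 had a probe set; the others were not analysed here. Named are the 15 largest called changes in each direction with no overlap between arrays (predicted genes left out), key genes, up to 6 called members of each list, called TCR locus genes and the 5 largest strain and stage differences in each direction. Other list members were chosen after their values were seen. The comparison, members and lists were chosen with earlier results of these data known. Alternatives covered the filter, normalization, centring, a replicate block, sex, array weights, probe sets, the arrays fitted, a 2-fold minimum, the background level and leaving out each array.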

Additional observations from a re-analysis of the deposited data

Results flagged for a closer look

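A difference between strains or stages in the transgene effect was tested as the difference of the 2 effects in the limma fit, and these results were called. Between B6g7 and NOD DN4 cells the effect differed in 2152 genes, and between DN4 and DN2-3 cells of B6g7 in 5805 genes.

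More positive in B6g7 than in NOD, as log2 differences of the effects, were Samhd1 (3.18), the relaxin receptor gene Rxfp1 (2.79) and Il2rb (2.74). So were the small nucleolar RNA gene Snord37 (2.62), Trim12a (2.40), S1pr1 (1.78), Cd247 (1.09) and Id2 (1.07). Others were Kit (0.89), Sox13 (0.85), Id3 (0.68), Cd3d (0.67) and Cd5 (0.53). Id2 and Id3 were not called in B6g7 (0.25 and 0.27) and changed by -0.82 and -0.41 in NOD. Samhd1 was at background in NOD cells without the transgene (5.85 and 5.83) and on 1 non-Tg B6g7 array, and its difference was 3.22 with signals raised to background. Rxfp1 was at background in non-Tg B6g7 cells, so its B6g7 effect has only a bound, and it read 5.95 to 6.19 in NOD cells. Trim12a was at background on every NOD DN4 array, at 4.30 to 5.21, so its NOD effect has no measured size. The call of Snord37 was lost on leaving out any one of 7 arrays of the comparison.

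More negative in B6g7 than in NOD were Cd8b1 (-2.78), Rgs6 (-2.51), Rag1 (-2.38), Ccdc18 (-2.37), Nrp1 (-2.37), Cd8a (-2.15), Dntt (-0.74) and Zbtb16 (-0.73). Zbtb16 was not called in B6g7 (-0.33) and changed by 0.40 in NOD. Rgs6, a regulator of G protein signalling, was at background in both B6g7 groups, so its B6g7 effect has no measured size. It read 7.79 and 7.88 in BDC/NOD DN4 cells, while NOD DN4 cells were at background, so its NOD effect has only a bound. The strain difference of Rag2 was -1.10 on the deposited values, but Rag2 was at background in BDC/B6g7 DN4 cells, and with signals raised to background the difference was 0.0922 and not called (adjusted p = 0.855 with limma), so it has no settled direction.

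More positive in DN4 than in DN2-3 cells of B6g7 were Itgae (5.63), Ccr9 (5.04), the G protein regulator Rgs1 (4.47), Cpa3 (4.43), the phospholipase family gene Pld4 (4.40), Cd69 (3.14), S1pr1 (2.56), Bcl11b (1.66), Cd247 (1.66), Sox13 (1.63), Bcl2 (1.58), Egr2 (1.41), Runx3 (1.41), Kit (1.34), Il7r (1.10), Gata3 (0.99), Egr1 (0.89), Cd3d (0.86), Id2 (0.59) and Cd3e (0.58). Pld4 changed by -3.21 in DN2-3 and 1.19 in DN4 cells. Il7r differed between stages through its DN2-3 effect of -1.04, with 0.06 in DN4 cells.

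More negative in DN4 than in DN2-3 cells were Cd8b1 (-4.0), Ccne2 (-3.25), Esco2 (-3.21), Pbk (-3.08), Rfc4 (-3.07), Cd8a (-2.94), Id3 (-0.84), Cd5 (-0.69) and Thy1 (-0.37). Cd5 changed by 1.68 in DN2-3 and 0.98 in DN4 cells. The call of Thy1 was lost under several alternatives, among them quantile normalization again (-0.10).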

How the results depend on the processing

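The count of 6336 genes called between BDC and non-Tg DN4 cells ranged from 5221 to 7221 when 1 array of the series was left out. The replicate block gave 6341, with 6281 genes shared. Without the 4 male arrays 4258 were called, 4245 of them shared, and 2040 were higher. With a 2-fold minimum 1665 genes were called, 949 higher and 716 lower. Centring moved the split to 3504 higher and 2634 lower. The strain difference gave 3436 genes with array weights, 3305 with only the arrays compared, 321 without the male arrays, 457 at a 2-fold minimum, 2172 with the replicate block, and 1305 to 3734 when 1 array was left out. The stage difference gave 3676 without the male arrays, 2419 at a 2-fold minimum, 5823 with the replicate block and 6372 with the replicate block within strain and genotype, where the numbers pair the samples. That block ended no call among the genes listed above for a stage difference.

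Over single genes and list counts 6710 values kept direction and call or size, 129 lost the call, 21 gained it, 58 moved and 1 turned. The strain difference of Rag2 (-1.10) became 0.0922 (adjusted p = 0.855 with limma) with signals raised to background. Slc15a2 fell by 1.96, but its BDC arrays read 5.42 and 7.58, and without BDC/B6g7 DN4 replicate 1 the difference was -0.88 and not called, as was that without B6g7 DN4 replicate 2 (-1.57). The medians of the lists kept their sign, except early progenitor genes and transporters, whose medians of -0.01 and -0.05 were near 0. The cause of these changes was not tested. Xist still read 6.73 on the BDC/B6g7 DN4 array of a male, so the background level of single probe sets can lie above 5.98.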

Other observations

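These genes were picked after their values were seen, for the difference between their effects in the 2 strains. Cd72, an inhibitory coreceptor, rose by 1.55 ± 0.10 in B6g7 DN4 cells, from 6.91 and 6.93 to 8.43 and 8.52, while in NOD it read 6.22 and 6.09 without the transgene and was at background with it. Maml2 changed by -0.25 in NOD against 1.31 in B6g7. Scd1, a fatty acid desaturase, changed by -2.94 in NOD. In B6g7 it was at background in BDC cells (5.35 and 5.54), fell by at least 0.56, and was not called with signals raised to background.

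Among nutrient transporters Slc43a3 fell by 1.58 ± 0.10, from 11.42 and 11.60 to 9.96 and 9.89, the glutamine transporter gene Slc38a1 rose by 0.64 ± 0.11 and the amino acid transporter chain Slc3a2 by 0.57 ± 0.17. Hspa5, a chaperone of the endoplasmic reticulum, rose by 1.03, while the heat shock gene Hsph1 fell by 1.09 ± 0.22. Gadd45b rose by 1.67 ± 0.16.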
